A study of Sus scrofa with 2 samples.

Results

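The subject is the set of topologically associating domains (TADs) that share sequence with another listed TAD in the spleen of pigs. In situ Hi-C, which joins and sequences DNA fragments that lie close together in fixed nuclei, had been run on spleen tissue in 2 biological replicates of 1 group. The labels give no breed, age or treatment. The series has 1 domain list and 1 loop list, and how the replicates entered them is not given. The members were selected on the deposited starts and ends alone, as the domains of chromosomes 1 to 18 that shared at least 1 base with another listed domain. They numbered 213 of the 1908 domains on these chromosomes (11.2%), and the whole list held 1927. None of the 15 domains listed on chromosome X and none of the 4 on unplaced scaffolds overlapped another. Since these measured positions chose the members, their number and arrangement are a description.

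TADs are stretches of chromatin whose loci contact each other more often than loci outside. In the loop extrusion model, the cohesin ring reels in chromatin until it meets CTCF bound to DNA, and a domain closed in this way often shows a point of strong contact between its edges. Such a domain can hold smaller ones, and nested domains are a usual feature of mammalian maps. The spleen contains B cells, T cells, macrophages and stromal cells, so a bulk map sums over many cell types. Fewer cells with a structure and weaker contacts in each cell cannot be told apart here.

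Nesting was the rule and partial overlap the exception. Of the 213 members, 108 lay wholly inside another domain and are called nested. Another 99 held a nested domain and are called containers. The remaining 6 overlapped in part, as 3 pairs. Of the containers, 90 held 1 nested domain and 9 held 2. No nested domain held a further one, so the hierarchy had 2 levels throughout. The members formed 102 separate groups, 93 of 2 domains and 9 of 3.

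The nested domains were short. The median was 200 kb, the middle 50% spanned 170 to 240 kb, and single lengths went from 130 to 1420 kb. For containers the median was 390 kb, the middle 50% spanned 340 to 480 kb, and single lengths went from 280 to 1790 kb. The 1695 domains that overlapped none lay between them, with a median of 250 kb and the middle 50% at 200 to 360 kb. Lengths are part of what makes an overlap possible and were not compared further. The rule's threshold of 1 base was not close to any pair. The smallest overlaps were 130 kb, each of them a whole nested domain, on chromosome 12 (11880001 to 12010000), chromosome 14 (74800001 to 74930000) and chromosome 17 (49290001 to 49420000). Just outside the rule, 5 consecutive domain pairs met at a shared edge without sharing a base, and 48 were 10 kb apart.

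Most nested domains lay close to 1 side of their container. The nearer side is by definition the one with the smaller distance, so the distances themselves are given. On the nearer side the distance between the 2 edges had a median of 20 kb. It was 0 in 27 of the 108 pairs and at most 60 kb in 104. On the farther side it had a median of 165 kb and was never below 100 kb. The nested domain took up a median of 53.9% of the container, from 25.8 to 83.8%. It lay nearer the left edge in 47 pairs and nearer the right edge in 61. A nested pair can therefore be read as a container with 1 free inner edge, the edge of the nested domain that lies far from the container's own.

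**Figure D1:**
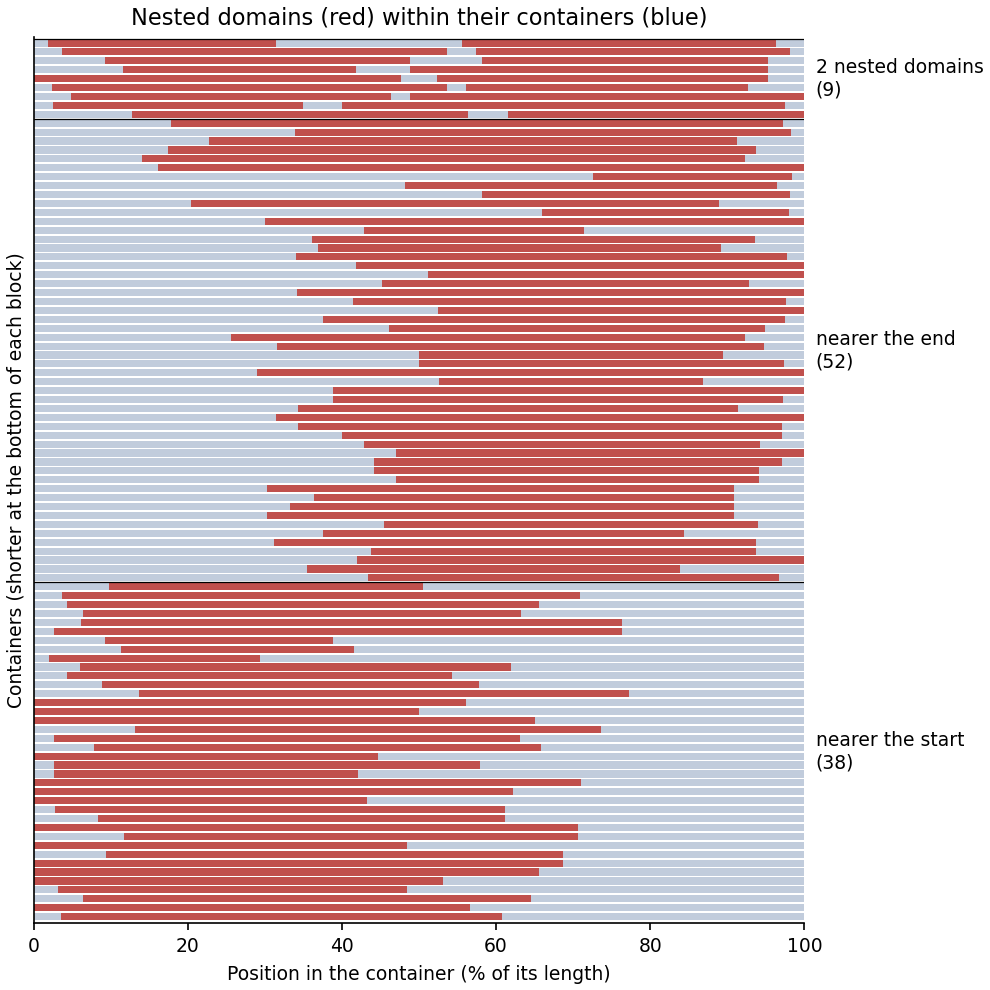
Each row is 1 of the 99 containers (blue, drawn from 0 to 100% of its length), with its nested domains in red. The lower blocks hold the 90 containers with a single nested domain, sorted by whether the red bar lies nearer the start or the end. In the top block of 9 the 2 nested domains lie side by side.

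The members were spread over all 18 autosomes. The share of listed domains that overlapped another was 11.5 ± 4.86% per chromosome (SD, n = 18 chromosomes). It was lowest on chromosome 8, at 4 of 80 domains (5%), and highest on chromosome 17, at 16 of 66 (24.2%). Chromosome 6 held the most members, 24. Containers that span a pair of neighbouring domains were uncommon. Among 114 pairs of consecutive nested or non-overlapping domains with a gap of at most 20 kb, 6 (5.26%, 95% Wilson interval 2.43 to 11%) lay together in a container.

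Whether loops close the nested domain or its container was asked with the loop list. A loop is a pair of 25 kb anchors with more contacts than their surroundings, and 3261 of the 3410 listed loops were on chromosomes 1 to 18. An anchor was assigned to an edge when it came within 20 kb of it. Loops and domains were called from the same maps, the lists have no value per replicate, and no test was made. The Wilson intervals below take domains and edges as independent and cover counting error alone.

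Nested domains were closed by a loop more often than containers. A loop joined both edges in 42 of 108 nested domains (38.9%, 30.2 to 48.3%) and in 15 of 99 containers (15.2%, 9.4 to 23.5%). Over all listed autosomal domains the share was 33.9%, and over those that overlapped none it was 34.7% (589 of 1695). Per chromosome it was 38.1 ± 20.8% for nested domains and 15.9 ± 17.7% for containers (SD, n = 18 chromosomes). The nested share was the higher on 13 chromosomes, the container share on 2, and they were equal on 3.

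Long domains were seldom closed by a loop in any class, and containers are long. Among domains of up to 250 kb, 39 of 83 nested domains (47%, 36.6 to 57.6%) had such a loop, against 390 of 855 that overlapped none (45.6%, 42.3 to 49%). These intervals overlap widely. Among domains of over 250 to 500 kb, 15 of 78 containers (19.2%, 12 to 29.3%) had one, against 180 of 566 that overlapped none (31.8%, 28.1 to 35.8%). Containers in this class were the longer, with a median of 380 against 310 kb. In a narrower class of over 300 to 400 kb, chosen after the values were seen, the shares were 12 of 54 (22.2%, 13.2 to 34.9%) and 74 of 242 (30.6%, 25.1 to 36.6%), with medians of 350 and 340 kb, and the intervals overlapped. Above 500 kb, none of 21 containers had such a loop (upper Wilson limit 15.5%), nor did any of 12 nested domains (24.2%), against 19 of 274 that overlapped none (6.93%).

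**Figure D2:**
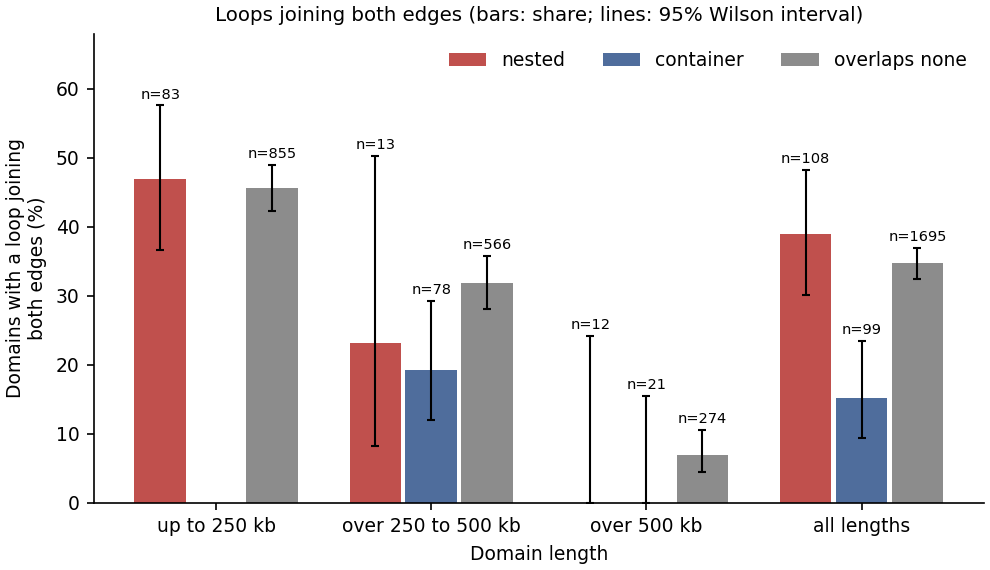
Bars give the percentage of domains with a loop joining both edges, by domain length, for nested domains, containers and domains that overlap none. Lines are 95% Wilson intervals. The shares fall with length in every class, and over 250 to 500 kb containers stand at 19.2% and domains that overlap none at 31.8%.

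Neither level was closed by a listed loop in 58 of the 108 nested pairs (53.7%, 44.3 to 62.8%). Another 34 had a loop at the nested domain and none at the container, 8 had the reverse and 8 had both. The count with both followed the settings, at 18 with a window of 40 kb, 5 with 10 kb and 2 with the 1630 loops of lowest FDR. The count with neither followed them too, and was lower at 40 kb, where 64 pairs had a loop at the nested domain. At least 100 kb lies between the far edges of the levels, so with the window of 20 kb no single loop could count for both. With 40 kb a single loop could, where the far edges lay 100 kb apart. Another possible closure runs from the free inner edge to the far edge of the container, around the part that the nested domain leaves over. Such a loop was listed in 16 of 108 pairs (14.8%, 9.33 to 22.7%). In the 90 containers with 1 nested domain it was listed in 9, while the nested domain itself was closed in 33. In containers with 2 nested domains, every such loop was also counted as closing the neighbouring nested domain. In 53 pairs none of the 3 closures was listed.

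The 58 loops that closed nested domains had a median span of 162.5 kb and a median of 139 observed contacts (91 to 248), not normalized. Observed contacts exceeded expected ones by a median factor of 1.92 (1.63 to 2.61). The 22 loops that closed containers had a median span of 350 kb, 91.5 contacts (65 to 139) and a factor of 2.34 (1.8 to 2.81). For the 889 loops that closed domains overlapping none, the medians were 200 kb, 109 contacts and a factor of 2.1. Contacts fall with distance, so the contact counts of loops that differ in span are given as values and not compared.

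The 8 pairs closed at both levels belonged to 7 containers, since 2 pairs on chromosome 17 shared a container and its loops. With the loop of most contacts taken at each level, the loops of nested domains spanned 100 to 200 kb and those of containers 325 to 375 kb. The ratio to expected contacts was higher for the container in 6 of the 8, higher for the nested domain in 1 and equal to the printed digits in 1, with medians of 1.98 for nested domains and 2.33 for containers. Where several loops closed a level, the loop of most contacts did not always have the highest ratio, so these counts depend on that choice. The pairs were chosen for having these loops and the spans differ, so the values are a description.

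**Figure D3:**
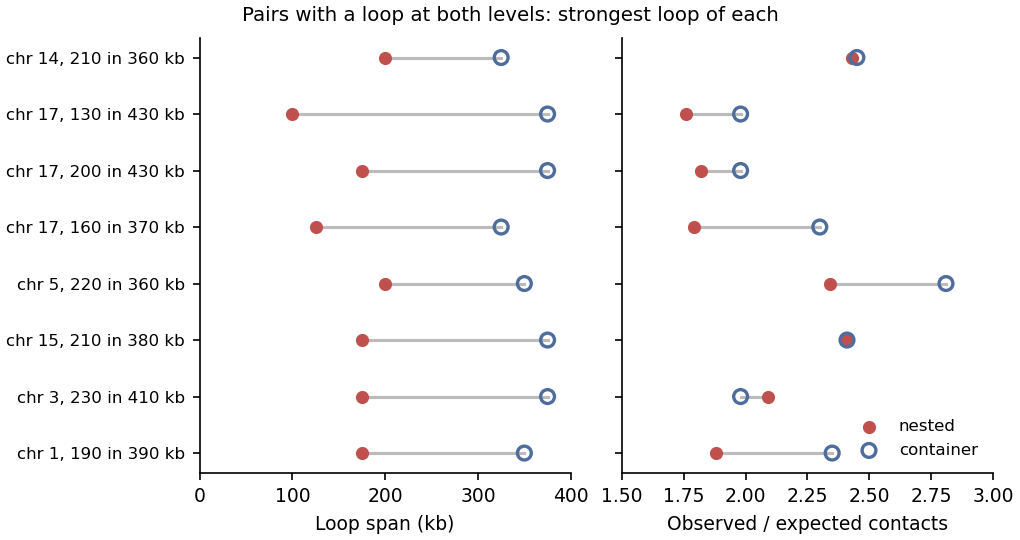
Loop span in kb (left) and the ratio of observed to expected contacts (right) at the nested domain (filled red) and at its container (open blue), for the 8 pairs with a loop at both levels. The strongest loop is the one of most observed contacts, which does not always have the highest ratio. The spans do not overlap, at 100 to 200 kb for nested domains and 325 to 375 kb for containers, and the ratio is higher for the container in 6 of 8 pairs.

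On chromosome 17, a container from 49240001 to 49670000 (430 kb) held 2 nested domains, and loops closed all 3. The first nested domain, from 49290001 to 49420000, lay largely in ZMYND8, a chromatin reader and transcriptional corepressor. Its loop of most contacts had 179 against 102. The second, from 49450001 to 49650000, contained most of NCOA3, a coactivator of nuclear receptors, and its loop of most contacts had 168 against 92.2. The container was closed by 2 loops with 111 and 90 contacts, against 56 and 43.1 expected. The left anchor of both held an end of ZMYND8. The right anchor of the one with 90 contacts held ends of NCOA3 and SULF2, a heparan sulfate endosulfatase. EYA2, a transcriptional coactivator, ended near the container's start and had no loop.

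The same chromosome had a container from 43650001 to 44020000 with a nested domain of 160 kb at its left edge. Loops led from this shared left edge to an anchor with an end of TOP1, DNA topoisomerase I (166 contacts), and to an anchor with an end of LPIN3, a phosphatidate phosphatase (94 contacts). PLCG1, the phospholipase C of growth factor and antigen receptor signalling, ended near the free inner edge, and EMILIN3 near the container's right edge, both without a loop. ZHX3, inside, had none either. On chromosome 5 a container from 27090001 to 27450000 had USP15, a deubiquitinase, at its left edge and MON2 at the free inner edge. Their anchors looped to the shared right edge with 112 and 130 contacts, and PPM1H, a protein phosphatase, lay in the nested domain without a loop.

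Another 3 pairs had few genes. On chromosome 15, a container from 132480001 to 132860000 had NPPC, the precursor of C-type natriuretic peptide, near the left edge of its nested domain, 10 kb inside the container's own. Loops from the NPPC anchor led to the free inner edge (148 contacts) and to the far outer edge (80 contacts). DIS3L2, an exoribonuclease, was the other gene of that container and had no loop. On chromosome 1, CORO2B, a coronin, had an end at the free inner edge of a container from 166420001 to 166810000 and in the anchor of the loop that closed the nested domain (93 contacts). The container's loop, with 78 contacts, had no protein-coding gene end in either anchor. ANP32A lay in the nested domain and SPESP1 ended near the container's right edge, both without a loop. On chromosome 3, the loops of a container from 79490001 to 79900000 and of its nested domain had 90 and 110 contacts, and no gene ended in their anchors. B3GNT2, a glycosyltransferase, ended near the free inner edge with a loop of its own inside the nested domain (109 against 76.2 contacts). COMMD1, a regulator of copper handling and of NF-kB, ended near the far outer edge without a loop.

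Edges were then counted singly. Edges of members were divided into 195 inner edges, which lay inside another listed domain, 177 outer edges, which lay in none, and 27 shared edges, common to a nested domain and its container. A loop anchor lay within 20 kb of 122 inner edges (62.6%, 55.6 to 69.1%) and of 67 outer edges (37.9%, 31 to 45.2%). Of the shared edges 17 had one (63%, 44.2 to 78.5%). Over all 3784 autosomal edges the share was 49.2%, and at domains that overlapped none it was 49%. Per chromosome, it was 60.3 ± 20.6% for inner and 38.8 ± 17.4% for outer edges (SD, n = 18 chromosomes), with the inner share higher on 14 chromosomes, the outer on 2 and equal on 2. Near inner edges lie close to an outer edge, and 1 anchor can reach both when they are up to 65 kb apart. The 108 free inner edges, at least 100 kb from the container edge they face, had an anchor in 65 cases (60.2%, 50.8 to 68.9%), and the 90 far outer edges in 30 (33.3%, 24.5 to 43.6%). These sets are unlike, since 18 of the free inner edges were in containers with 2 nested domains and no far outer edge was. Facing edges of 2 nested domains can also share an anchor. In containers with 1 nested domain, 47 of 90 free inner edges had a loop into the nested domain (52.2%, 42 to 62.2%). Of the 90 far outer edges, 29 had an inward loop (32.2%, 23.5 to 42.4%), and the intervals just overlapped.

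Ends of short domains had anchors more often in every class. Among domains of up to 250 kb, 120 of 166 ends of nested domains had an anchor (72.3%, 65 to 78.5%), against 1022 of 1710 ends of domains that overlapped none (59.8%, 57.4 to 62.1%). These intervals did not overlap, although both classes had a median length near 200 kb (190 and 200 kb). The intervals take ends as independent, although 1 loop can mark both ends of a domain and 1 anchor can reach facing ends of neighbouring nested domains. Of the nested domains of up to 250 kb, the 83 free edges alone stood at the same 72.3% with a wider interval (61.8 to 80.8%), which just reaches that of the domains that overlapped none. In containers with 1 nested domain, 43 of 66 free edges of this class had a loop into the nested domain (65.2%, 53.1 to 75.5%). Ends of domains that overlapped none had an inward loop in 55.8% (53.5 to 58.2%), and the intervals overlapped. The longer nested domains did not share the higher anchor share, with 12 of 26 ends over 250 to 500 kb (46.2%, 28.8 to 64.5%) and 2 of 24 above 500 kb (8.33%, 2.32 to 25.8%), against 48.6% and 16.2% where domains overlapped none. Among domains of over 250 to 500 kb, 57 of 130 unshared ends of containers had one (43.8%, 35.6 to 52.4%), against 550 of 1132 (48.6%, 45.7 to 51.5%), and the intervals overlapped.

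Loops at the free inner edge led mostly into the nested domain. Of the 108 free edges, 59 (54.6%) had a loop into the nested domain and 23 (21.3%, 14.6 to 29.9%) had a loop away from it that stayed within the container, and 17 had both. At domains that overlapped none, 45.5% of ends had an inward loop and 9.82% (8.87 to 10.9%) an outward one. Containers with 1 and with 2 nested domains were also counted apart, after the values were seen. The share with a loop away was 12 of 90 (13.3%, 7.79 to 21.9%) with 1 nested domain, an interval that includes the value of domains that overlapped none. With 2 it was 11 of 18 (61.1%, 38.6 to 79.7%), and there such a loop can run within the neighbouring nested domain. Far outer edges had an outward loop in 2 of 90 cases (2.22%, 0.612 to 7.74%). In the class of up to 250 kb the shares with an outward loop were 11 of 66 (16.7%, 9.57 to 27.4%) at free inner edges in containers with 1 nested domain and 12.2% (10.8 to 13.9%) at domains that overlapped none, and the intervals overlapped. No loop from a free inner edge passed beyond the far edge of the container. Of 189 loops with both anchor midpoints within a container, 110 (58.2%) lay in a single nested domain, 32 (16.9%) in the rest, 46 (24.3%) had an anchor in each and 1 joined both nested domains of a container.

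**Figure D4:**
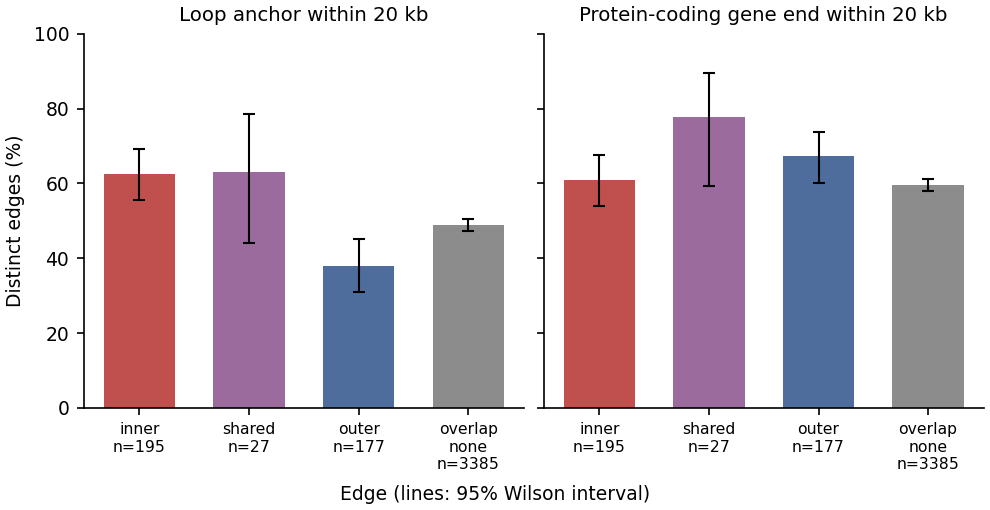
Percentage of distinct edges with a loop anchor (left) and with an end of a protein-coding gene (right) within 20 kb, for inner, shared and outer edges of overlapping domains and for edges of domains that overlap none, with 95% Wilson intervals. Anchors were listed at 62.6% of inner and 37.9% of outer edges, while gene ends stood at 61 and 67.2%.

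Gene ends, taken from an annotation that owes nothing to the Hi-C maps, were not more frequent at inner edges. The gene table has no strand, so an end is either the start or the finish of a gene. An end of a protein-coding gene lay within 20 kb of 119 of 195 inner edges (61%, 54 to 67.6%) and of 119 of 177 outer edges (67.2%, 60 to 73.7%). Shared edges had one in 21 of 27 cases (77.8%, 59.2 to 89.4%). All autosomal edges stood at 60.1%, and edges of domains that overlapped none at 59.6%. The intervals of inner and outer edges overlapped, and both include the value over all edges. Among outer edges, the 90 far ones had a gene end in 64 cases (71.1%, 61 to 79.5%), an interval just above the value over all edges, and the 66 near ones that were not shared in 38 (57.6%, 45.6 to 68.8%). Free inner edges had one in 68 of 108 cases (63%, 53.6 to 71.5%). Per chromosome the shares were 56.5 ± 19.1% at inner and 64.2 ± 22.5% at outer edges (SD, n = 18 chromosomes). An anchor and a gene end came together at 42.6% of inner edges, 25.4% of outer edges and 31.7% of edges of domains that overlapped none.

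Containers were gene-rich on average, with a wide spread between chromosomes. All 99 held at least 1 protein-coding gene by midpoint, while 7 of the 108 nested domains held none. The density was 11 ± 8.45 protein-coding genes per Mb in nested domains and 13.2 ± 5.86 in the rest of the containers. In domains that overlapped none it was 8.92 ± 2.93, and outside all listed domains 8.28 ± 4 (SD, n = 18 chromosomes for each). These differences were no larger than the SD over chromosomes in the nested or container class. The nested domain was denser than the rest of its container in 45 pairs, less dense in 61 and equal in 2. Pooled over chromosomes, lncRNA genes stood at 3.29 per Mb in nested domains, 3.19 in the rest of the containers and 2.8 in domains that overlapped none.

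Of 18722 protein-coding genes on these chromosomes, 577 (3.08%) had their midpoint in a member, 299 of them in a nested domain, 262 in the rest of a container and 16 in a partly overlapping domain. A loop anchor covered an end of 116 of the 299 nested genes (38.8%, 33.4 to 44.4%) and of 69 of the 262 others in containers (26.3%, 21.4 to 32%). It did so for 29.4% of genes in domains that overlapped none and for 17.8% of all genes. Neighbouring genes can share an anchor, so genes are not independent, and these shares were not split by domain length.

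The 9 groups of 3 domains show how genes fall where a pair of nested domains meet. On chromosome 9, a container from 45450001 to 45870000 (420 kb, 14 protein-coding genes) was divided into nested domains of 200 and 180 kb, 20 kb apart. The genes of the CD3 complex, the signalling chains of the T cell receptor, lay at this divide. CD3E and CD3D lay in the first nested domain, and CD3G spanned its right edge, with the midpoint between the domains. All 3 had an end within 20 kb of an inner edge. An end of CD3E was in an anchor from 45600001 to 45625000, which looped by 100 kb to an anchor with ends of SCN2B and JAML, a junctional adhesion molecule of leukocytes (178 against 114 contacts). An end of CD3G shared the anchor from 45650001 to 45675000 with UBE4A, a ubiquitin ligase, and looped to the other side, into the second nested domain (160 against 100 contacts). CD3D had no loop. No loop within the container crossed the divide, and none joined both edges of any of the 3 domains. TMPRSS4 and SCN4B, at the left edge, had no loop either.

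On chromosome 6, a container from 28120001 to 28660000 (540 kb) held 27 protein-coding genes, the most of any. Its first nested domain, from 28130001 to 28290000, contained CTCF, the insulator protein named above. The nested domain was closed by 2 loops from an anchor with an end of RIPOR1. The first led to an anchor with ends of CTCF and CARMIL2 (174 against 89.1 contacts), and the second to the neighbouring anchor at the free inner edge (166 against 93.6). The other end of CTCF lay in an anchor that looped to the same edge (161 against 101). This edge was crowded with gene ends. CARMIL2, an actin regulator required for T cell co-stimulation, had 3 loops there, and ACD, a telomere protein of the shelterin complex, PARD6A, a cell polarity protein, and ENKD1 had 2 each. ATP6V0D1, a proton pump subunit, and AGRP, a neuropeptide of feeding, lay at other edges of the group without loops. A single loop of 475 kb ran from the first nested domain to the far side of the container with 75 against 40.9 contacts, at an FDR of 0.098 in the authors' deposited table. Its left anchor was too far from the container's edge to count as closing it.

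**Figure D5:**
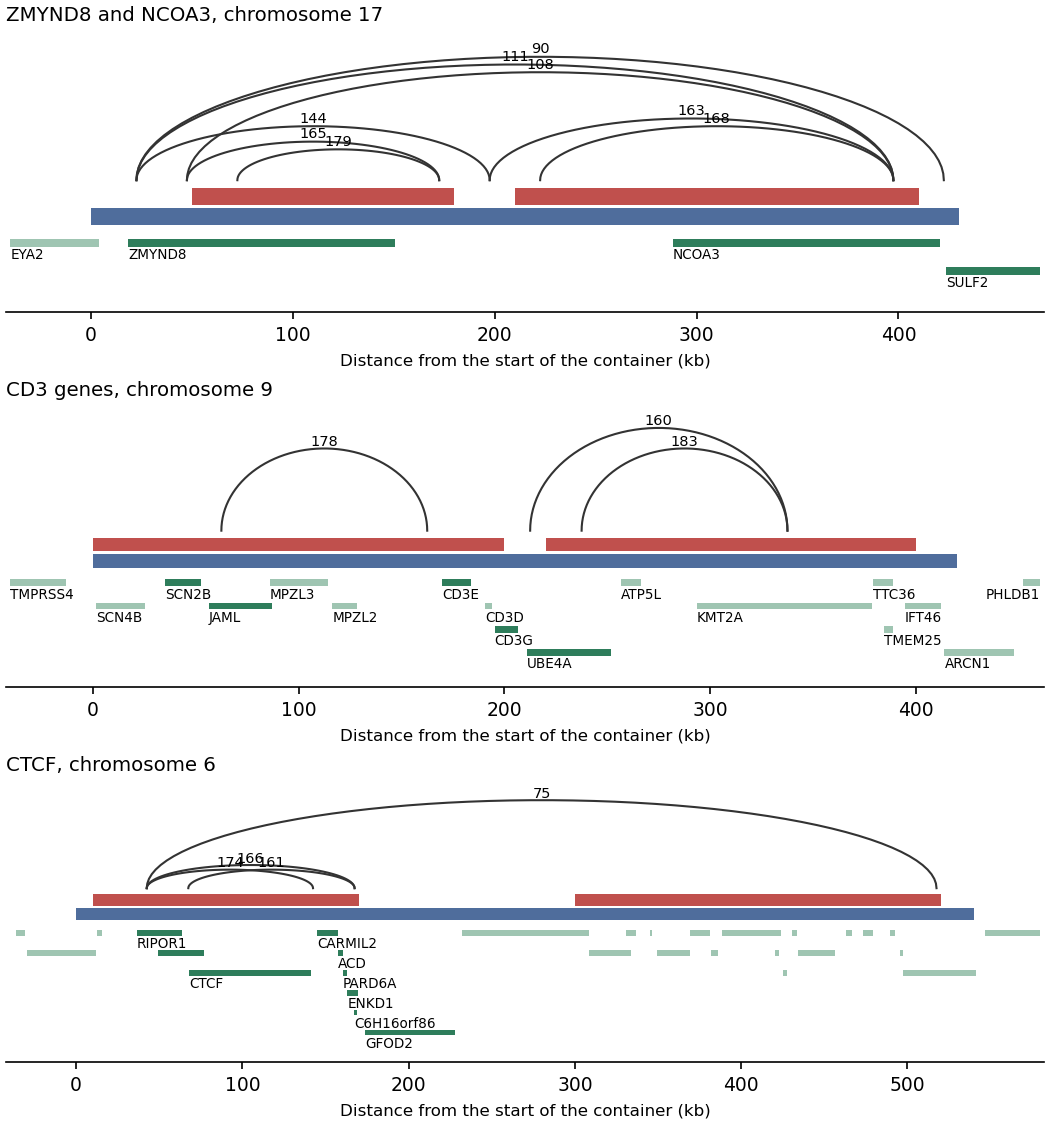
Maps of 3 containers (blue bars) with their nested domains (red bars), loops (arcs between anchor midpoints, labelled with observed contacts, arc height in proportion to span within each panel) and protein-coding genes (green, dark where an end lies in an anchor). The horizontal axis is the distance from the container's start in kb. In the CTCF panel only genes with a loop are labelled. Loops close both levels in the ZMYND8 panel, and in the CD3 panel no arc crosses from the left to the right nested domain.

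Among groups of 3 domains, the 5 longest also include 1 on chromosome 1 and 1 on chromosome 18. On chromosome 1, a container from 107330001 to 107870000 had loops only in its first nested domain, from an edge with ends of OAZ2, an inhibitor of ornithine decarboxylase, and ZNF609 to the free inner edge (114 contacts, and 139 from the neighbouring anchor). TRIP4 and PCLAF, a partner of the replication clamp, ended at the divide, and CSNK1G1 and PPIB, an endoplasmic reticulum cyclophilin, at the far outer edge. None of these 4 genes had a loop. On chromosome 18, a container from 17620001 to 18050000 held a single protein-coding gene by midpoint, MKLN1 (muskelin). It had 1 loop at an end, which was not among the loops inside the container, since no protein-coding gene ended in their anchors. Of the loops inside, 2 closed the container's second nested domain with 157 and 190 contacts.

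No loop closed the longest containers, which was so for all 21 containers above 500 kb. The container on chromosome 13 from 36420001 to 38210000 (1790 kb) held 4 protein-coding genes. These were CACNA2D3, a calcium channel subunit, LRTM1, WNT5A, a secreted Wnt ligand, and ERC2, a protein of the presynaptic active zone. The container on chromosome 6 from 150440001 to 152180000 (1740 kb) had PATJ, TM2D1 and C6H1orf87 at edges, and NFIA, a developmental transcription factor, inside. The container on chromosome 7 from 67150001 to 68490000 (1340 kb) held 9 genes, with GPR33, DTD2, AP4S1 and STRN3 at edges and AKAP6 and ARHGAP5 inside. None of these named genes had a loop at an end, and no loop closed any of the 3 containers or their nested domains.

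The 3 partial overlaps shared 150 to 170 kb. On chromosome 14, domains from 32550001 to 32750000 and from 32580001 to 32850000 shared 170 kb with 3 of their 4 genes. SH2B3, an adaptor that restrains cytokine signalling in blood progenitors, had an end in an anchor with FAM109A, and this anchor looped across the shared stretch (141 against 77.5 contacts). CUX2, BRAP, ACAD10 and ATXN2 had no loop. On chromosome 9, domains from 125990001 to 126170000 and from 126020001 to 126280000 shared 150 kb. FAM129A had both ends in anchors, 1 of them together with RNF2, the catalytic subunit of Polycomb repressive complex 1. Of their 3 loops, with 127, 105 and 114 contacts, 2 closed the first domain and all 3 the shared stretch, whose left edges are 30 kb apart and not resolved by 25 kb anchors. EDEM3, a mannosidase of protein quality control, had none. On chromosome 2, domains from 8100001 to 8270000 and from 8110001 to 8480000 shared 160 kb and held 10 genes in all. No loop joined any of their edges, although MACROD1 and OTUB1, a deubiquitinase, had 2 and 1 loops at their ends. NAA40, LGALS12, HRASLS5 and C2H11orf95, at the edges, had none.

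Gene lists of spleen cell types, immune functions and other tissues were then looked up. Of 687 entries, 631 matched a protein-coding gene on chromosomes 1 to 18, and 33 of these (5.23%) lay in members, against 3.08% of all genes. Genes of a list can be neighbours, so these counts are not of independent genes. T and NK cell genes were in members in 5 of 42 cases, the 3 CD3 genes among them. TBX21, the T-bet factor of cytotoxic and helper lymphocytes, lay in a nested domain on chromosome 12, and GNLY, a protein of cytotoxic granules, in a container on chromosome 3, neither with a loop. Cytokine and receptor genes were in members in 5 of 52 cases, all of them in a single container on chromosome 13 from 28880001 to 29440000. CCR1, a receptor for inflammatory chemokines, lay in its nested domain of 270 kb, and CCR9 and CXCR6 lay in the rest, all without loops.

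This chemokine receptor container held 12 protein-coding genes. CCR2, the receptor that draws monocytes into tissue, and XCR1, which marks cross-presenting dendritic cells, lay in the same nested domain without loops. They were the single macrophage and monocyte gene of 33, and 1 of the 2 of 22 dendritic and antigen presentation genes, found in a member. LTF, lactoferrin of neutrophil granules, ended near the right edges of both levels without a loop.

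Interferon response genes were in members in 4 of 34 cases. OAS1 and OAS2, the oligoadenylate synthetases that sense double-stranded RNA, lay in a container on chromosome 14 from 38520001 to 38860000, both with an end near the right edges of the container and its nested domain. The container had 5 loops, 3 of them at the free inner edge, but no anchor covered an end of either gene. MAVS, the mitochondrial adaptor of RNA sensing, lay with SIGLEC1, a receptor of macrophages, in a container on chromosome 17, and XAF1 lay on chromosome 12, without loops. Neutrophil and mast cell genes were in members in 3 of 18 cases, ELANE and PRTN3, neighbouring granule proteases on chromosome 2, and LTF. Of megakaryocyte genes 2 of 17 were, GP9, a chain of the von Willebrand factor receptor, with 1 loop at an inner edge, and RUNX1, a transcription factor of blood formation. RUNX1 was the single gene by midpoint of its container of 680 kb and had no loop. NF-kB genes were in members in 2 of 25 cases, IKBKB and NFKB2, without loops.

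Among the lists of other functions, 4 of 31 housekeeping genes were in members. ACTB, cytoplasmic actin, lay in a nested domain with 1 loop, and GUSB had 1, while ENO1 and RAB7A, at outer edges, had none. Chromatin architecture genes were in members in 2 of 25 cases, CTCF and NCAPH, a condensin subunit without a loop. Of 23 liver genes 2 were, among them HNF4A without a loop, and of 32 neuronal genes KCNA1 was, a potassium channel with no loop. For 8 of the 20 lists no gene was in a member. The limit for a count of 0 was taken here as 3 divided by the number of genes. It is not a Wilson limit like those given for domains and edges. A count of 0 allows a share of up to 4.23% for the 71 ribosomal protein genes and 4.11% for the 73 developmental transcription factors, which is above 3.08%. For the 26 B cell genes it allows 11.5%, for 11 plasma cell genes 27.3%, for 17 erythroid genes 17.6%, for 32 stromal and vessel genes 9.38%, for 24 genes of transposon silencing 12.5% and for 23 skeletal muscle genes 13%. These lists are therefore not distinguishable from all genes at this number.

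The free inner edge with the most loops, singled out after the values were seen, lay at 11880001 on chromosome 12, within a container from 11680001 to 12060000. Its 6 loops were those of a hub that includes SLC16A6, a monocarboxylate transporter family member with 6 loops, ARSG with 5 and AMZ2 with 4. Among those with 4 loops were the edge at C1H9orf43 on chromosome 1 and the edge between ZMYND8 and NCOA3 on chromosome 17, where no protein-coding gene end lay within 20 kb.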

How the data were processed

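The deposited domain list holds positions only, in steps of 10 kb. Its caller, not given in the sources used here, may differ from HiC-Pro 3.1.0, which the submitters' processing notes name. Per the file headers, juicer_tools 1.9.9 produced the loop list, which gives raw observed contact counts as deposited. Per the file headers it also gives the expected signal, of which the donut value was used, and 4 FDR values, which are q-values, of which the largest was taken. Pooling of replicates and sequencing depth were not given in the sources used here, so values describe 1 pair of lists and not the spread between animals.

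Intervals were compared with pandas 2.3.3 and scipy 1.17.1, checked on simulated domains. Printed coordinates follow the deposited lists, counted from 1, which name no build. Genes came from RefSeq's table of Sscrofa11.1. Gene ends per loop anchor were 0.87 at the listed positions and 0.677 to 0.797 at offsets of 25 to 200 kb, and gene coordinates are not printed. A gene belonged to a domain by its midpoint and to an anchor by either end.

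The members and lists were chosen with earlier results of these data known. Named were the 5 groups of most domains, longest first, all pairs closed at both levels, the partial overlaps, the 3 longest containers, with up to 6 genes each, and up to 4 genes per list. Genes sharing a loop with these (RIPOR1, JAML, SCN2B), any further gene of a list of 5, the free inner edges taken alone and the ends by length class were added after values were seen. Loci without a gene symbol are not named, and some results that this rule names are not reported here. No sequence of an edge was used here. Alternatives were edge windows of 10 and 40 kb, a larger minimum overlap, adjoining domains, chromosome X, 1630 loops of lowest FDR, 2252 loops with 1 kept of each set of adjoining ones, all 26902 genes, gene spans and leaving out chromosome 6.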

Additional observations from a re-analysis of the deposited data

How the results depend on the processing

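The order of the loop results held under all 7 settings in which they were computed, the reported one included: the nested share above the container share, and inner edges above outer edges and above edges of domains that overlap none. Outer edges stood above inner edges in gene ends in all 6, but only narrowly with all annotated genes (71.2 against 70.3%). The intervals of inner and outer edges overlapped in the reported setting. A minimum overlap of 50 kb and adding chromosome X changed no count of members and could not, since the smallest overlap is 130 kb and no domain on chromosome X overlaps another. The minimum overlap of 50 kb is counted among the 7 and the 6 settings. It returned the reported values, so it is no check on either order. Counting adjoining domains made 16 partly overlapping domains in place of 6. Of the other alternative values, 39 of 76 stayed within the interval, SD or 1.5-fold range of the reported one.

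A window of 10 kb gave closed shares of 28.7% for nested domains and 25.7% for those that overlap none. Anchors were then at 52.3% of inner, 27.7% of outer and 41.5% of the edges of domains that overlap none, and gene ends at 40.5% of inner, 47.5% of outer, 55.6% of shared and 40.4% of the last. Pairs closed at both levels numbered 5. A window of 40 kb gave closed shares of 59.3% and 44.9%, anchors at 70.8, 48.6, 81.5 (shared) and 57.1%, and gene ends at 77.9% of inner, 85.3% of outer and 76.5% of edges of domains that overlap none. Nested domains were closed in 64 pairs, and both levels in 18. At this window 1 loop can count for both levels where their far edges lie 100 kb apart. Wider windows can only add matches.

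With the 1630 loops of lowest FDR, closed shares were 25.9% (nested), 8.08% (container) and 23.5% (overlapping none), and anchors were at 43.1% of inner, 24.9% of outer, 40.7% of shared and 33.1% of other edges. Containers were closed in 8 pairs and both levels in 2. Fewer loops can only remove matches. With 1 loop kept of each set of adjoining loops, domains that overlap none were closed in 28.9%, with anchors at 55.4% of inner edges and 44.9% of edges of domains that overlap none. With all annotated genes, ends lay at 70.3% of inner edges, 71.2% of outer edges and 67.4% of edges of domains that overlap none. The density was then 15.7 genes per Mb in nested domains, 18.1 in the rest of the containers and 13 in domains that overlap none.

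Without values per replicate, no result here has a replicate check, and no paired analysis was possible because the lists carry no replicate. The number of contacts per loop, from 10 to 371 on these chromosomes, is the single measure of depth. Edges at 10 kb and anchors at 25 kb leave near inner and outer edges unresolved.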
